A study of Mus musculus with 4 samples.

Results

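Foxp3 T cells without CD8 transcripts were the barcodes of the 3 tumor libraries in which 200 or more genes were seen and mitochondrial genes took no more than 10% of UMIs (unique molecular identifiers, each standing for a captured transcript molecule). They also had at least 1 UMI of Cd3d, Cd3e or Cd3g, at least 1 of Foxp3, 0 of Cd8a and Cd8b1, and at most 1 of C1qa, C1qb and C1qc, which mark macrophages and microglia. The rule found 243 cells of 8694 barcodes in the series, 97 in the IgG library, 83 in the anti-CTLA-4 library and 63 in the depletion library. Because measured Foxp3, Cd3, CD8 and C1q UMIs chose the cells, these 9 genes were left out of every test.

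The study measured single-cell RNA with 10x Genomics 3′ droplets in immune cells of C57BL/6J mice aged 8 to 12 weeks. The 4 libraries were healthy brain and brain with cells of the mouse glioma line 005 injected into the hippocampus, with isotype control antibody (rat IgG2a, clone LTF-2), with anti-CTLA-4 (Syrian hamster, clone 9H10), or with anti-CTLA-4 and the CD4-depleting antibody GK1.5. The depletion library therefore shares anti-CTLA-4 with its neighbour. Antibodies were injected from day 7 and brains collected at day 35. Each tumor library pooled 3 tumors, and 4 sorted fractions (microglia, CD11b+ myeloid cells, CD3+ T cells and the remaining CD45hi cells) were mixed at equal ratios, so shares are given within T cells only. T cells were all barcodes that met the gene, mitochondrial, Cd3 and C1q limits.

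Foxp3 is the transcription factor that defines regulatory T cells, which restrain other lymphocytes through CTLA-4, through consumption of IL-2 by the IL-2 receptor alpha chain and through secreted and surface inhibitors. Most of them belong to the CD4 lineage. In tumors, regulatory T cells carry high CTLA-4 and costimulatory receptors of the TNF receptor family, and antibodies against CTLA-4 can act on them as well as on effector cells.

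Each group was 1 library, so differences between libraries have no replicate check and no p-value. Intervals (95%) cover counting error only, and UMIs of a gene that cluster in few cells make the true error wider. The members held 553256 UMIs in the IgG library, 428117 under anti-CTLA-4 and 239768 after depletion, at medians of 3929, 4501 and 3457 UMIs per cell. Foxp3-negative T cells without CD8 transcripts numbered 212, 319 and 393, at medians of 5533.5, 5253 and 3491. Between 0 and 6 barcodes were shared by any 2 libraries, and 0 of these were members.

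The label held against its other markers. Foxp3 lies at chrX:7573644-7595245 (mm10, GENCODE annotation), Il2ra at chr2:11642807-11693193, Ikzf2 at chr1:69531214-69687245, Ctla4 at chr1:60887000-60915832 and Tnfrsf4 at chr4:156013843-156016612. Il2ra, the IL-2 receptor alpha chain, stood at 407 CPM (the UMIs of a gene scaled to the total UMIs of the summed cells) with IgG, 509 under anti-CTLA-4 and 421 after depletion, against 129.8, 62.5 and 64.4 in Foxp3-negative cells. Ikzf2, the transcription factor Helios, stood at 1435, 1602 and 1385 CPM against 407, 279 and 272. Ctla4, the transcript of the antibody's target, stood at 624, 521 and 500.5 CPM against 192, 139.7 and 119.5. Tnfrsf4, the costimulatory receptor OX40, stood at 1103, 1682 and 909 CPM against 437, 309 and 93.9. In every library each of these 4 markers was higher in Foxp3 cells, and the ranges over libraries did not overlap between the populations. All 4 were seen together in 49 of 97 Foxp3 cells of the IgG library (50.5%), 39 of 83 under anti-CTLA-4 (47.0%) and 22 of 63 after depletion (34.9%), against 7.08%, 3.13% and 3.31% of Foxp3-negative cells. At 1000 UMIs per cell, to which cells were thinned to remove depth, Ikzf2 was seen in 69.5%, 67.5% and 74.6% of Foxp3 cells and in 23.9%, 18.5% and 16.2% of the others.

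**Figure D1:**
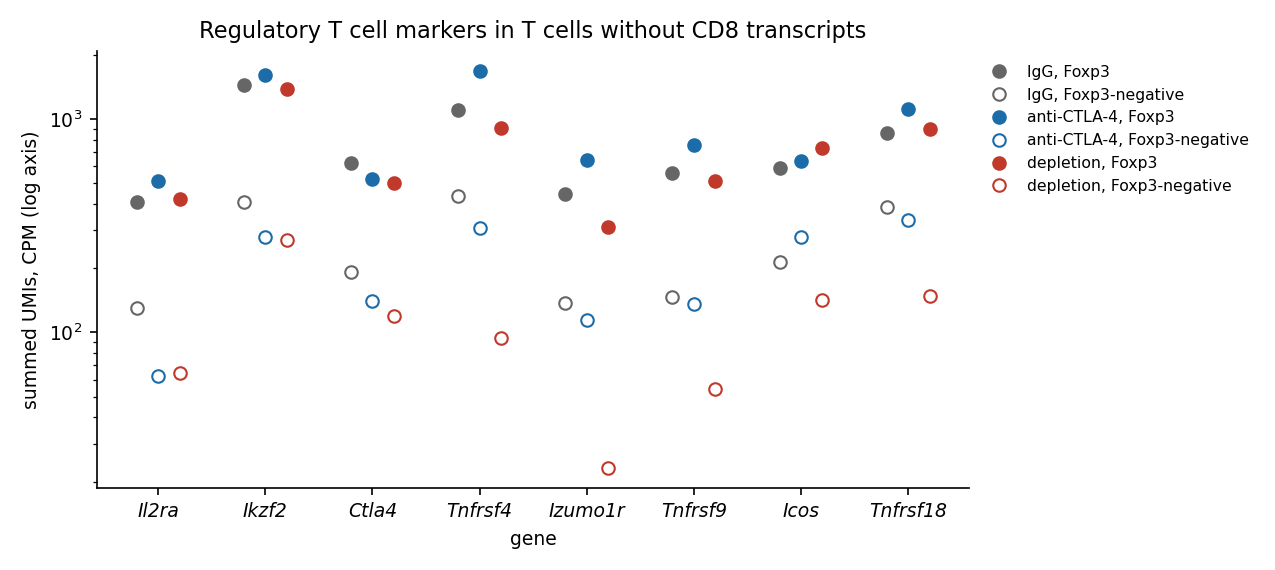
Summed UMIs in CPM (log axis) of 8 regulatory T cell and costimulatory genes in T cells without CD8 transcripts, with Foxp3 cells as filled and Foxp3-negative cells as open points, 1 point per library. All filled points lie above the open points of the same gene, for example 407 to 509 CPM against 62.5 to 129.8 for Il2ra.

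Marker levels at the edge of the rule are given over the 3 tumor libraries. The 77 members with a lone Foxp3 UMI had 446 CPM of Il2ra and 1594 of Ikzf2, the 166 with at least 2 had 445 and 1447, and the 924 Foxp3-negative cells had 82.1 and 312. Ctla4 differed by library: with 1 Foxp3 UMI it stood at 1081.5 CPM with IgG and 334 with anti-CTLA-4, and with at least 2 at 500.2 and 591. Foxp3 cells left out for 1 CD8 UMI (36 cells) had 253 CPM of Il2ra and 1069.5 of Ikzf2, and in the anti-CTLA-4 library (9 cells) 1613 of Ikzf2. Those left out for 2 to 4 C1q UMIs (21 cells) had 571 and 1433. These values are a description, since Foxp3, CD8 and C1q set the edges.

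The start regions of 3 of the markers and of Gzmb, whose level differed between libraries, are shown because these genes carry the results that follow. The sequences are RefSeq windows from 250 bases before to 50 bases after the annotated start, build GRCm38.p6, written 5′ to 3′ on the gene's strand. Capitals mark matches, on either strand, to a core motif of NFAT factors (GGAAA), a STAT motif (TTCNNNGAA), a forkhead motif (GTAAACA) and an AP-1 motif (TGANTCA), which may overlap.
Il2ra, chr2:11642542-11642841, plus strand: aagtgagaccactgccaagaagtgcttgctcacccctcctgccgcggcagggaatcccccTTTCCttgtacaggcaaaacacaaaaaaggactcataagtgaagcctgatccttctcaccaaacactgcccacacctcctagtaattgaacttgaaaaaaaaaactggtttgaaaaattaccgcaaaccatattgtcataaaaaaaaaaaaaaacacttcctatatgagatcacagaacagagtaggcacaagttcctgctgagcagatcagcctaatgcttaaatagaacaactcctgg
Ctla4, chr1:60908775-60909074, plus strand: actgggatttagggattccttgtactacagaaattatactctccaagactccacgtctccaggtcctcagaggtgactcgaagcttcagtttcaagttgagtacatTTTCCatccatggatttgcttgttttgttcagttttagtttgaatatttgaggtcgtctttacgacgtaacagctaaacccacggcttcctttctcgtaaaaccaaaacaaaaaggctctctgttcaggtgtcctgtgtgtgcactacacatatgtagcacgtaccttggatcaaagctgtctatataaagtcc
Tnfrsf4, chr4:156013445-156013744, plus strand: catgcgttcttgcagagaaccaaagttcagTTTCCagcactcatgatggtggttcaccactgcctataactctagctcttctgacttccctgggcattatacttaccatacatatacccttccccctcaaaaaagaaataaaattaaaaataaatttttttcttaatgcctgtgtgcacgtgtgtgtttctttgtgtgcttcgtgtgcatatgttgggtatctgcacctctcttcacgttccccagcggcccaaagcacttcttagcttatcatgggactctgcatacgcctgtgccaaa
Gzmb, chr14:56262285-56262584, minus strand: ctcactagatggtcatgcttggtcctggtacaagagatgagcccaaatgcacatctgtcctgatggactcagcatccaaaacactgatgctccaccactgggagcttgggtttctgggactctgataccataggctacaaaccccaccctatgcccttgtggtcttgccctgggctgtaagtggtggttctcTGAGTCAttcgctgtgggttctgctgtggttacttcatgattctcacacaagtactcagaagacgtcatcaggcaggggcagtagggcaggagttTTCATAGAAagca
The 3 marker windows held 1 NFAT core each and no match to the other motifs. The Gzmb window held 1 AP-1 and 1 STAT match and no NFAT core. Among 27025 promoter windows of the same length, 61.3% held GGAAA, 8.47% TTCNNNGAA, 7.93% TGANTCA and 3.55% GTAAACA. Such matches are letters in a window, not binding sites.

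Foxp3 cells without CD8 transcripts were a smaller part of T cells in each treated library. They made up 25.3% of T cells in the IgG library (97 of 383, 95% CI 21.0 to 29.99%, Clopper-Pearson), 15.2% under anti-CTLA-4 (83 of 547, 12.3 to 18.5%) and 5.37% after depletion (63 of 1173, 4.15 to 6.82%). The 3 intervals did not overlap. In healthy brain the same rule found 2 of 151 T cells (1.32%). After thinning to 1000 UMIs the shares were 11.6%, 8.12% and 4.32%, in the same order, and the first 2 intervals (8.54 to 15.3% and 5.96 to 10.7%) then overlapped. A Foxp3 UMI was seen in 0 of 55, 1 of 176 and 0 of 132 B cells and in 1 of 376, 0 of 344 and 2 of 871 macrophages and microglia of the tumor libraries, so the background of Foxp3 UMIs in cells that should lack it was low. The limits that a count of 0 allows there run from 0.872% to 5.45%. The B cells had medians of 4933, 4823.5 and 2859 UMIs and the macrophages and microglia 6390.5, 6365.5 and 6520.

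The lower share after depletion stood beside a higher share of T cells with CD8 transcripts. T cells with a CD8 UMI were 19.3% of T cells in the IgG library, 26.5% under anti-CTLA-4 and 61.1% after depletion, and they enter the denominator of the share above. Among T cells without CD8 transcripts, Foxp3 cells were 31.4% (26.3 to 36.9%), 20.6% (16.8 to 24.9%) and 13.8% (10.8 to 17.3%). The Foxp3-negative cells of this denominator also held transcripts of other cell types, unevenly by library. A neutrophil marker was seen in 5.19%, 8.15% and 26.5% of them, in the order IgG, anti-CTLA-4 and depletion. How far such barcodes lowered the shares was not tested. Counted with or without CD8 transcripts, Foxp3 cells were 26.6%, 17.4% and 11.3% of T cells. Of all Foxp3 T cells, 95.1% lacked a CD8 UMI in the IgG library, 87.4% under anti-CTLA-4 and 47.4% after depletion (63 of 133, 38.7 to 56.2%). The order of the libraries was the same in each count, and the gap between them was smaller when Foxp3 cells with CD8 transcripts were included.

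**Figure D2:**
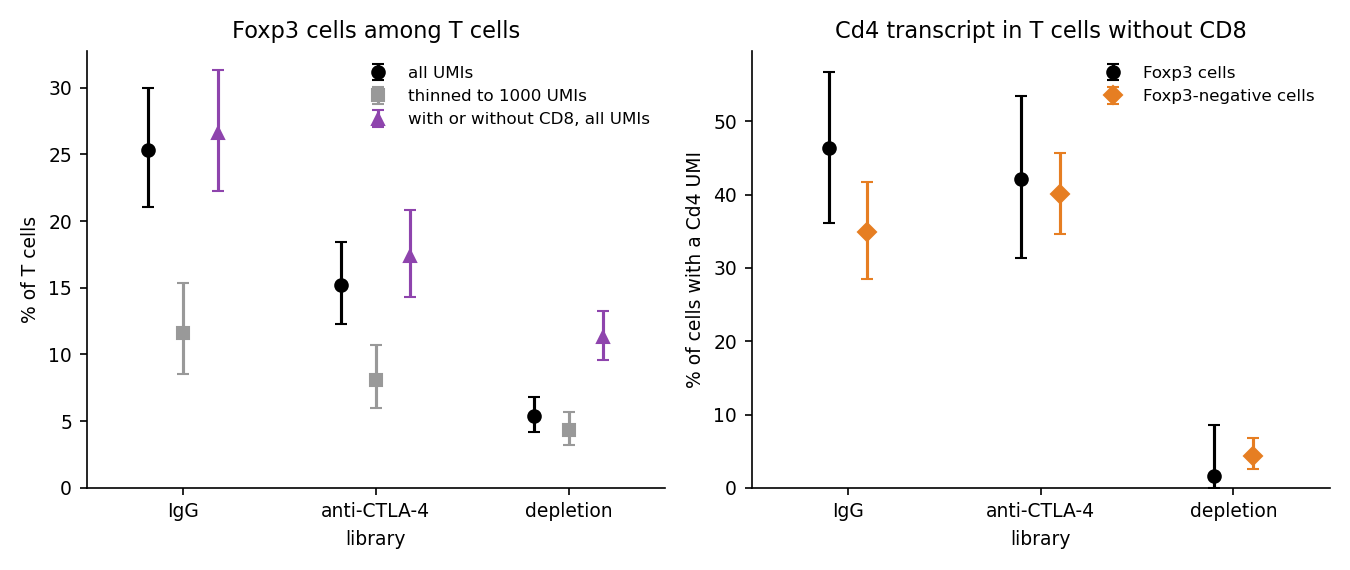
Left, share of T cells that are Foxp3 cells in the 3 tumor libraries, without CD8 transcripts (circles), the same after thinning to 1000 UMIs (squares), and with or without CD8 transcripts (triangles). Right, share of Foxp3 and Foxp3-negative T cells without CD8 transcripts with a Cd4 UMI. Bars are 95% Clopper-Pearson intervals, which cover counting error only. The shares of Foxp3 cells without CD8 transcripts run from 25.3% to 5.37%, and Cd4 is seen in 1.59% of them with depletion.

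Cd4 (chr6:124864692-124888221), the coreceptor that the depleting antibody binds, was nearly absent from the Foxp3 cells of the depletion library. It stood at 145 CPM (95% CI 115 to 179.97) in the IgG library, 173 (136 to 217) under anti-CTLA-4 and 4.17 (0.106 to 23.2) after depletion, where 1 UMI was counted. A Cd4 UMI was seen in 46.4% of Foxp3 cells in the IgG library (45 of 97), 42.2% under anti-CTLA-4 (35 of 83) and 1.59% after depletion (1 of 63, 0.0402 to 8.53%). In Foxp3-negative cells the shares were 34.9%, 40.1% and 4.33%. In B cells, which should lack Cd4, they were 0 of 55 cells (up to 5.45% allowed), 1.14% (2 of 176) and 0 of 132 (up to 2.27%), so the share left with depletion lay within that background. Il2ra, Ikzf2 and Ctla4 in the same cells were lower than with anti-CTLA-4 by 1.21-fold (0.951 to 1.55), 1.16-fold (1.01 to 1.32) and 1.04-fold (0.830 to 1.31). Tnfrsf4 was 1.85-fold lower (1.59 to 2.16).

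Against Foxp3-negative T cells without CD8 transcripts, Foxp3 cells had higher regulatory, costimulatory and cell cycle transcripts and lower cytotoxic ones. The 2 populations were compared within each of the 3 tumor libraries by edgeR's quasi-likelihood test on summed UMIs, with the library as a block. Thus n = 3 libraries of different treatment. The p-values rest largely on a spread pooled over genes (median prior plus residual degrees of freedom 21.4), not only on each gene's own spread over these libraries. Of 7292 genes tested, 330 were higher (4.53%) and 432 lower (5.92%) at an adjusted p under 0.05, and 323 and 420 of these moved the same way in all 3 libraries. The cells were chosen by Foxp3, so the contrast describes what goes with that transcript. The median log2 fold change of all genes was -0.01.

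On the regulatory identity list, 11 of 12 genes tested were higher and 0 lower, with a median log2 fold change of 1.90. Values in parentheses and sizes of a rise or fall are log2 fold changes here and below. The largest were Lrrc32, which encodes the TGF-beta docking receptor GARP (3.16, SE 0.40, adjusted p 7.31e-06), and Izumo1r, which encodes folate receptor 4 (2.37, SE 0.23, adjusted p 1.91e-07). Il2ra followed at 2.32 (SE 0.20, adjusted p 4.35e-08), Tnfrsf4 at 2.19 (SE 0.23, adjusted p 4.23e-07) and Ikzf2 at 2.12 (SE 0.15, adjusted p 1.93e-09). Ikzf4, the factor Eos, rose by 2.03, Ctla4 by 1.77, Tnfrsf18 (the receptor GITR) by 1.68 and Capg by 1.29. Nrp1, a coreceptor used to mark thymus-derived regulatory T cells, rose by 0.84 and Foxo1 by 0.76. Rgs16 was at -0.68 with an adjusted p of 0.219.

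Of the TNF receptor family, 5 of 8 genes tested were higher and 1 lower (median 1.04). Tnfrsf9, the costimulatory receptor 4-1BB, stood at 555, 754 and 509 CPM in Foxp3 cells of the 3 libraries, in the order IgG, anti-CTLA-4 and depletion used below, and at 146, 136 and 54.4 CPM in the others (log2 fold change 2.38, SE 0.19, adjusted p 7.65e-09). Cd27 rose by 1.23 and Tnfrsf1b, the second TNF receptor, by 0.85, while Tnfrsf1a fell by 1.09, a call not made in 10 of 12 alternative fits. Icos, a costimulator of the CD28 family, stood at 589, 635 and 729.9 CPM against 214, 279 and 141 (1.54, SE 0.18, adjusted p 2.52e-06). Of 6 genes of that family tested, 2 were higher and 1 lower, the last being Pdcd1, the inhibitory receptor PD-1 (-0.58, adjusted p 0.0499). That lower call was not made in 9 of 12 alternative fits, among them DESeq2 and each fit without 1 library. On the checkpoint and chronic stimulation list 0 of 10 were higher and 3 lower, among them Cd160 and Cd244, which NK cells also express.

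Suppressive molecules were mixed. Of 11 tested, 5 were higher and 1 lower (median 0.62), and 2 were higher by DESeq2 and 2 with no library block. Ebi3, a subunit of the cytokine IL-35, stood at 45.2, 58.4 and 25.02 CPM against 12.3, 15.1 and 10.0 (1.68, SE 0.32, adjusted p 0.00073). Nt5e, the enzyme CD73 that makes adenosine, rose by 0.85, Fgl2 by 0.62 and Lgals1 by 0.59. Lgals3, a galectin abundant in myeloid cells, fell by 2.12. Il10 did not pass (-0.16, adjusted p 0.854), and it was at 54.2, 18.7 and 12.5 CPM in Foxp3 cells, with 56.7% of its IgG UMIs in 1 cell.

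Genes of effector regulatory T cells in tissue were higher for 6 and lower for 2 of 15 tested (median 0.36). Itgae, the integrin CD103 that binds E-cadherin, stood at 105, 114 and 313 CPM against 21.7, 34.4 and 49.4 (2.12, SE 0.21, adjusted p 1.91e-07). Klrg1, a receptor of differentiated cells, stood at 75.9, 49.1 and 200.2 CPM against 29.7, 16.2 and 13.8 (2.14, SE 0.34, adjusted p 0.000103). Maf and Prdm1, transcription factors of effector regulatory T cells, rose by 0.95 and 0.86. Il1rl1, the IL-33 receptor ST2, passed at 1.63 (SE 0.50, adjusted p 0.0372) although it was lower in Foxp3 cells with IgG (59.6 against 88.4 CPM). Bhlhe40 and Id2 fell by 1.13 and 1.63. Ccr8, a chemokine receptor of tumor regulatory T cells, was scarce, at 12.7, 18.7 and 0 CPM, with 0 UMIs in 239768 of the depletion library, which allows up to 3.

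IL-2 and TGF-beta pathway genes moved in part. Of 13 IL-2 receptor and STAT5 genes 4 were higher and 1 lower, with the STAT5 targets Cish (1.01) and Socs2 (1.31) and the kinase Pim1 (0.96) beside Il2ra, while Bcl2, a survival factor, fell by 1.95. Of 11 TGF-beta pathway genes 3 were higher (Itgae, Itgav and the receptor Tgfbr1) and 1 lower (the receptor Tgfbr2, -1.13). Of 14 chemokine receptors, Ccr4 (1.19) and Cxcr3 (0.63) were higher, and Cxcr6 (-3.24), Ccr1 (-2.57) and Cx3cr1 (-1.59) were lower. Cxcr6, a residency receptor, stood at 30.7, 79.4 and 16.7 CPM in Foxp3 cells against 304, 500.3 and 326.

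Interferon response, MHC class I and glycolysis genes were higher in part. Of 18 interferon response genes 7 were higher and 1 lower (median 0.39). Ifi27l2a, an interferon-induced gene, had the most UMIs of the list, at 4848, 7262 and 8696 CPM in Foxp3 cells against 2119, 2772 and 1476 (1.59, SE 0.18, adjusted p 1.47e-06). Igtp and Gbp7, interferon-gamma-induced GTPases, rose by 0.91 and 0.97, while Oasl2 fell by 1.47. Of 11 MHC class I genes 6 were higher, by 0.40 (H2-D1) to 0.76 (the peptide transporter Tap1). Of 17 glycolysis and hypoxia genes 5 were higher (Aldoa, Tpi1, Gapdh, Pkm and Bnip3) and 1 lower (Hk2). Against the Foxp3-negative cells with a Cd4 UMI, 5 of 16 interferon, 1 of 11 MHC class I and 0 of 17 glycolysis genes were higher, so the last call ended there. Without the anti-CTLA-4 library 3 of 11 MHC class I and 2 of 17 glycolysis genes were higher.

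Some genes of other T cell states were lower. Of 5 helper cytokine genes tested 3 were lower: Cd40lg, the B cell helper ligand (-2.69, adjusted p 7.78e-06), Tnf (-2.58) and Ifng (-3.48). Ltb was higher (0.60). Of 10 naive and recirculating genes 4 were lower, Tcf7 (-2.70), Bach2 (-1.63), Satb1 (-0.72) and Igfbp4, and 0 higher. Of 12 lineage factors of other helper subsets 4 were lower, Runx3 (-1.45), Il12rb2 (-2.93), Tcf7 and Eomes, and 2 higher, among them Cxcr3. Of 14 NF-kappaB genes 1 was higher (Nfkbia, 0.70) and of 13 immediate early genes 1 was lower (Btg2, -1.05). Of 10 T cell receptor and coreceptor genes 4 were higher, Cd2 (1.47), Cd6 (1.32), Cd5 (1.13) and Lat (0.47), and Cd4 did not pass (-0.18, adjusted p 0.717). Against cells with a Cd4 UMI that list had 1 higher and 3 lower. The list includes Cd4, which chose those comparator cells, so the difference in Cd4 itself was set by the choice. Over the 12 alternative fits, the number higher ran from 9 to 13 for regulatory identity, 2 to 12 for proliferation, 4 to 6 for the TNF receptor family, 2 to 8 for suppressive molecules, 3 to 7 for tissue effector genes, 4 to 7 for interferon response, 1 to 7 for MHC class I, 0 to 6 for glycolysis and 1 to 4 for T cell receptor genes. The number lower ran from 7 to 12 for cytotoxic, 1 to 5 for naive and 3 to 5 for lineage genes. Without the anti-CTLA-4 library 1 of 11 TGF-beta pathway genes and 0 of 14 chemokine receptors were higher, and without the IgG library 2 of 10 naive genes were lower.

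**Figure D3:**
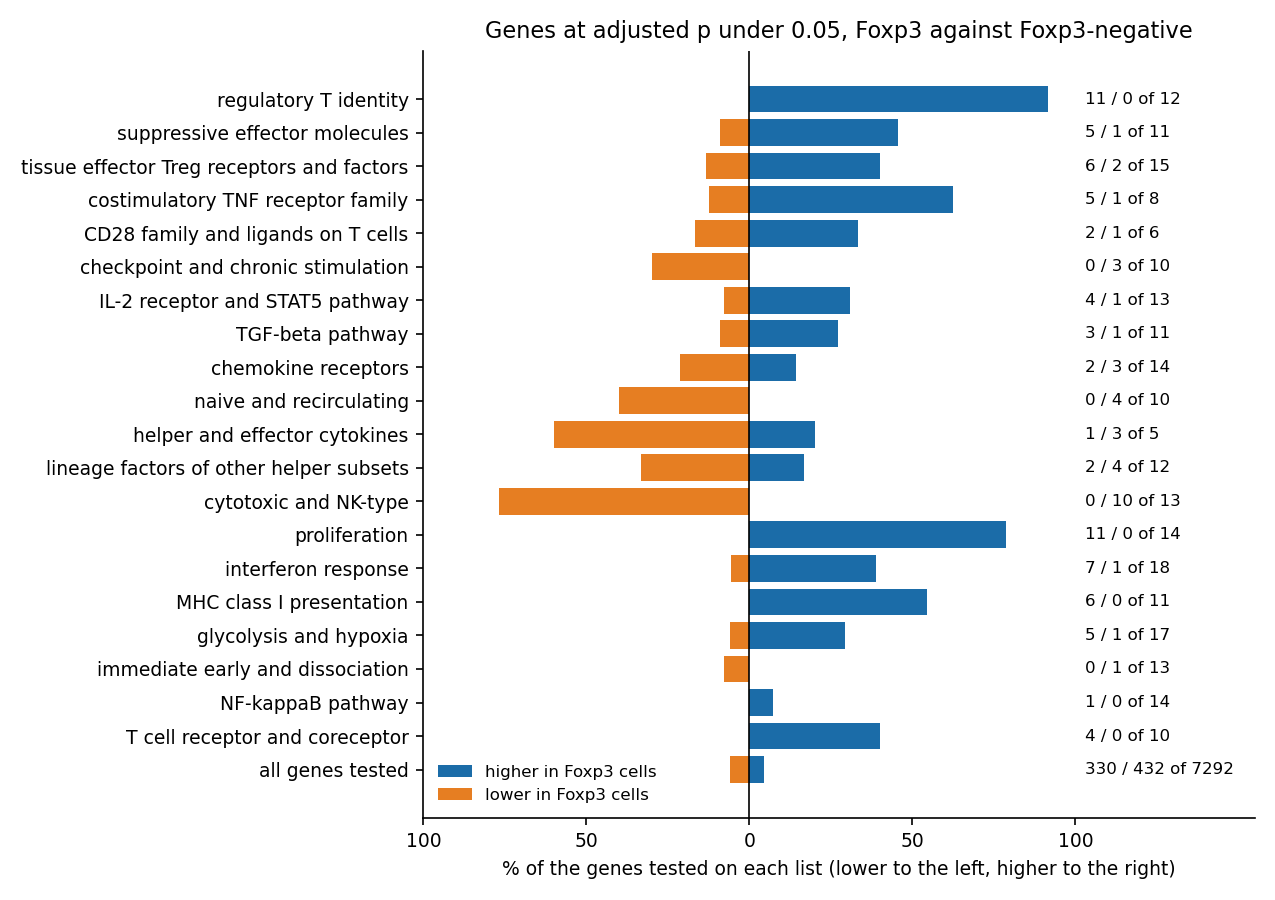
Percent of the genes tested on each list that were higher (right) or lower (left) in Foxp3 than in Foxp3-negative T cells without CD8 transcripts at an adjusted p under 0.05 (edgeR, 3 libraries), with the numbers higher / lower of those tested at the right. The regulatory T identity list (11 of 12 higher) and the proliferation list (11 of 14 higher) stand on the right, the cytotoxic list (10 of 13 lower) on the left, and all genes at 4.53% and 5.92%.

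By size among the genes that passed and moved the same way in all 3 libraries, the 12 highest held Lrrc32, Tnfrsf9 and Izumo1r and 9 genes on none of the lists of regulatory biology. Frmd5 had 14, 7 and 13 UMIs in Foxp3 cells against 2, 0 and 2 in the others (log2 fold change 4.91, SE 0.62, adjusted p 6.98e-06), though it was seen in 7.22%, 4.82% and 11.1% of Foxp3 cells. Bmyc, a relative of the Myc factor, was the most abundant of the 9, at 311, 348 and 254 CPM against 63.8, 51.1 and 37.5 (2.48, SE 0.17, adjusted p 8.73e-10). Ncmap stood at 36.1, 84.1 and 117 CPM against 7.97, 9.90 and 8.76 (2.96). The others were Ly6k (3.30), the relaxin-family hormone gene Rln3 (2.85), the lysosomal GTPase gene Rragd (2.76), Bicd1 (2.63), Ppp1r3fos (2.60) and the glycolytic enzyme gene Aldoc (2.60), each with 3 to 18 UMIs per library. Apart from Bmyc, the 9 genes were at or below 9.90 CPM in Foxp3-negative cells of every library. They passed the filter on low counts through their level in Foxp3 cells, so their direction and rank by fold are a description. Ppp1r3fos is an antisense transcript, and reads from its partner gene cannot be told apart if strand was not used in counting.

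The 12 lowest genes had 0 UMIs in all 243 Foxp3 cells, so the fold is a lower bound against 3 counts over the 3 libraries. They passed the filter on low counts through Foxp3-negative cells alone, so their direction is a description as well. Ccl1, a chemokine, had 231, 247 and 134 UMIs in Foxp3-negative cells and was at least 50.9-fold lower. It was seen in only 2.83%, 3.76% and 0.254% of those cells. Its UMIs thus lay in few cells, and the bound, which treats UMIs as separate counts, overstates how firm the absence is. The NK receptor genes Klra7, Klrc2, Klra9, Klra3, Klra6, Klrb1a and Klrb1b were at least 45.8-, 23.03-, 18.4-, 12.1-, 8.31-, 8.06- and 7.90-fold lower. Eomes, Samd3, Tnfaip2 and Igfbp4 were at least 11.1-, 11.1-, 14.5- and 7.73-fold lower. Klra and Klrb1 genes have near-identical relatives, so reads may be split between them. On the cytotoxic and NK-type list 10 of 13 genes were lower (median -2.53), among them Gzma at 14.5, 21.0 and 12.5 CPM against 705, 736 and 474 (-5.44, SE 0.23, adjusted p 5.19e-13). Gzmb did not pass (0.81, adjusted p 0.216).

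The Foxp3-negative cells also held transcripts of other cell types, and these are given beside the genes lower in Foxp3 cells. The 8 NK markers summed to 1139.6, 1077 and 731 CPM in Foxp3-negative cells against 19.9, 28.0 and 12.5 in Foxp3 cells, where 4, 4 and 7 of 8 were at 0. The 10 myeloid markers summed to 3171, 4642 and 5923 CPM against 1213, 843 and 1297. The 6 neutrophil markers reached 5019.6 CPM in Foxp3-negative cells of the depletion library, against 62.6 in Foxp3 cells. The 6 B cell markers in the table summed to 212, 309.6 and 39.4 CPM against 25.3, 81.8 and 58.4, with 80.0% of the anti-CTLA-4 value in 1 cell. Microglia markers were at 104, 123 and 159 CPM against 114, 53.7 and 58.4, dendritic markers at 20.3, 42.7 and 52.6 against 10.8, 18.7 and 4.17, and glioma markers at 0.725, 1.56 and 3.13 against 1.81, 0 and 0. The gamma-delta marker Sox13 was at 1.45, 4.69 and 17.5 CPM against 0 in all 3. Their part in the result was not tested, but NK markers were at or near 0 in Foxp3 cells. Against Foxp3-negative cells with a Cd4 UMI (74, 128 and 17 cells), 127 genes were higher and 119 lower of 5210 tested. The regulatory identity list then had 9 of 12 higher and 1 lower, and the myeloid list 2 of 6 higher and 0 lower, where 9 of 10 had been lower. DESeq2 gave 114 higher and 190 lower, with 9 of 12 on that list.

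Foxp3 cells without CD8 transcripts carried more cell cycle transcripts than Foxp3-negative cells without CD8 transcripts. In Foxp3-negative cells with CD8 transcripts the proliferation list summed to 1077, 1783 and 2159 CPM, against 4240, 1453 and 2869 in the members. Against the cells without CD8 transcripts, 11 of 14 proliferation genes tested were higher and 0 lower (median 1.22), among them Mki67 (1.65, SE 0.23, adjusted p 2.12e-05), Birc5 (1.84), Cenpa (1.47) and Hmgb2 (0.69). Without the IgG library 8 of 13 were higher, with the Cd4 comparator 7 of 13, by DESeq2 6 of 14, among cells with 0 C1q UMIs 6 of 12 and with no library block 2 of 14. At least 2 UMIs of 9 cell cycle genes (Mki67, Top2a, Birc5, Cdk1, Ccnb2, Ccna2, Ube2c, Nusap1 and Rrm2) were seen in 17.5% of Foxp3 cells in the IgG library (17 of 97, 10.6 to 26.6%), 13.3% under anti-CTLA-4 (11 of 83, 6.81 to 22.5%) and 7.94% after depletion (5 of 63, 2.63 to 17.6%). In Foxp3-negative cells the shares were 6.60%, 6.27% and 1.78%. After thinning, they were 4.21%, 4.82% and 4.76% of Foxp3 cells, so no order between libraries was left. In thinned Foxp3-negative cells the shares were 1.46%, 1.57% and 0.513%. In each library the intervals of the thinned shares overlapped between the populations. Cells with such UMIs were deeper, with medians of 7701, 7421 and 5778 UMIs against 3660.5, 4370.5 and 3328 in the rest.

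A few cells held most of these UMIs. The 9 genes had 670 UMIs in the IgG library, 78 under anti-CTLA-4 and 159 after depletion, and 94.3%, 66.7% and 91.8% of them lay in 5 cells of each library. Cells with 10 or more such UMIs numbered 5, 2 and 2. The summed levels of cell cycle genes between libraries therefore rest on few cells. The same sums entered the contrast with Foxp3-negative cells, which was not fitted without these cells.

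**Figure D4:**
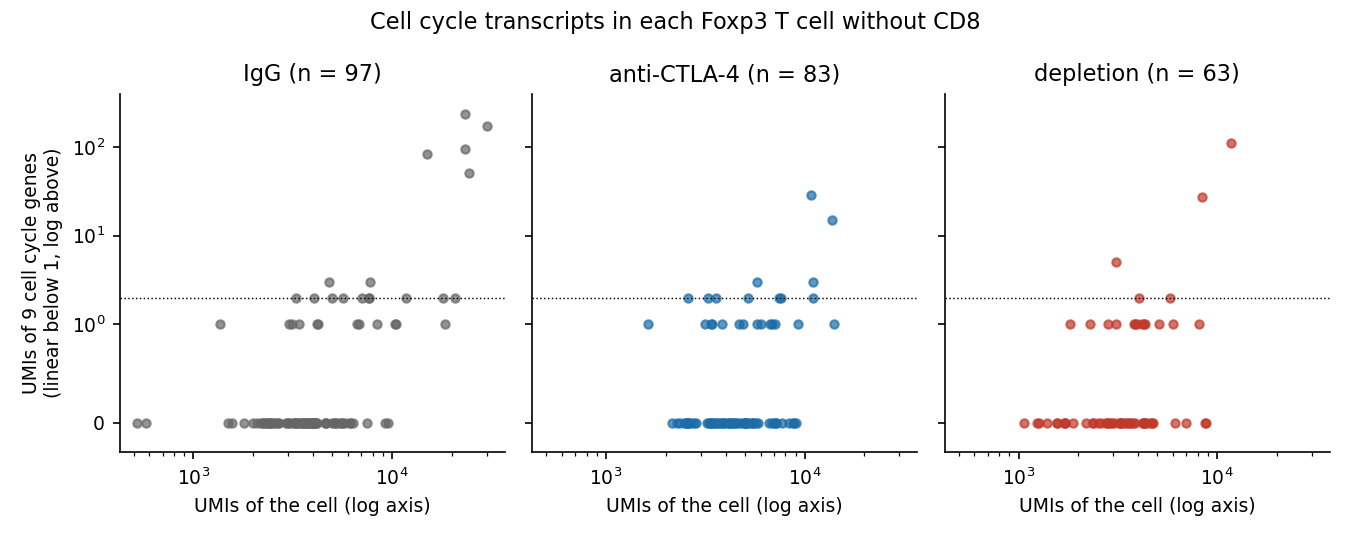
UMIs of the 9 cell cycle genes (linear below 1, log above) against the UMIs of the cell (log axis), 1 point per Foxp3 T cell without CD8 transcripts, by library. Points above the dotted line have more than 2 such UMIs, and those on it have 2. The 5 highest cells with IgG hold 94.3% of that library's cell cycle UMIs.

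With anti-CTLA-4 against IgG, Foxp3 cells had more UMIs of some suppressive genes and of Lag3, and fewer of the cell cycle. The size rule took genes whose CPM differed at least 2-fold, with 30 or more UMIs over the pair of libraries and detection in 10% or more of the cells where the level was higher. Of 4071 genes measured, 74 were higher (1.82%) and 102 lower (2.51%), as sizes and not as tests. Penk (chr4:4133531-4138819), which encodes the opioid precursor proenkephalin, stood at 52.4 CPM with IgG, 558 under anti-CTLA-4 and 70.9 after depletion. It was 10.7-fold higher with anti-CTLA-4 than with IgG (95% CI 7.23 to 16.2). It was seen in 7 of 97, 16 of 83 and 4 of 63 cells, and 32.2% of its anti-CTLA-4 UMIs were in 1 cell. Without the highest cell of each library it was 12.4-fold higher, and 4.68-fold among cells with at least 2 Foxp3 UMIs. Socs3, a feedback inhibitor of cytokine signalling, stood at 38.0 and 131 CPM (3.45-fold, 2.05 to 5.99), and Itgb8, the integrin subunit that activates TGF-beta, at 48.8 and 105 (2.15-fold, 1.31 to 3.61). Lag3, an inhibitory receptor, stood at 86.8 and 192 CPM (2.21-fold, 1.53 to 3.22) and Gzmb at 201 and 437 (2.18-fold, 1.71 to 2.78). Lag3 was the only 1 of 6 checkpoint genes measured that was at least 1.5-fold higher, while 3 were at least 1.5-fold lower. The chemokine Ccl5 stood at 513 and 1105 CPM, and the receptor Cxcr6 at 30.7 and 79.4.

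Others of the 6 highest were Avl9 (3.66-fold), Lmbrd1 (3.32-fold), Gnpnat1 (2.88-fold) and Mt1, a metallothionein. Mt1 was 3.94-fold higher, but 72.4% of its anti-CTLA-4 UMIs were in 1 cell, and it was 1.61-fold higher without the highest cells. Among the 6 lowest, Top2a (5.83-fold lower), Mki67 (6.24-fold), Prc1 (4.81-fold) and Mcm5 (7.22-fold, 2.23 to 37.1, with 3 UMIs under anti-CTLA-4) are genes of the cell cycle. All 15 proliferation genes measured were at least 1.5-fold lower (median log2 ratio -1.86), against 11.8% of all genes with at least 20 UMIs, while 11.9% of those were 1.5-fold higher. Leaving out cells with at least 2 cell cycle UMIs, an alternative chosen after seeing the data, turned Top2a, Mki67 and Prc1 to higher with anti-CTLA-4 and left 40 genes lower. Fcer1g and H2-Ab1, genes of antigen-presenting cells, were 7.61- and 4.84-fold lower, with 76.3% and 84.7% of their IgG UMIs in the same cell. Without the highest cell of each library they were 2.22- and 1.39-fold lower.

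Il2ra, Ikzf2, Ctla4, Tnfrsf4 and Izumo1r did not reach the size rule. Il2ra was 1.25-fold higher (1.03 to 1.52) with anti-CTLA-4 than with IgG, Ikzf2 1.12-fold (1.01 to 1.24), Tnfrsf4 1.53-fold (1.37 to 1.70) and Izumo1r 1.45-fold (1.22 to 1.73). Ctla4 was 1.20-fold lower (1.01 to 1.42), but among cells with at least 2 Foxp3 UMIs it stood at 500.2 CPM with IgG and 591 with anti-CTLA-4, the other way. On the regulatory identity list 3 of 13 measured genes were at least 1.5-fold higher and 0 lower (median log2 ratio 0.38, against 0.01 for all genes). Of 11 chemokine receptors 6 were at least 1.5-fold higher and 0 lower (median 0.51). Of 6 checkpoint genes 1 was higher and 3 lower.

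With added CD4 depletion, the Foxp3 cells without CD8 transcripts had more granzyme B, CD103 and KLRG1 transcripts. Compared with the anti-CTLA-4 library, which serves both comparisons, 65 of 2957 genes were higher by the size rule (2.2%) and 152 lower (5.14%). Gzmb (ENSMUSG00000015437, chr14:56258838-56262260), the granzyme through which regulatory T cells can kill other cells, stood at 201 CPM (95% CI 165 to 242) in the IgG library, 437 (376 to 504) under anti-CTLA-4 and 1818 (1652 to 1997) after depletion, 4.16-fold above anti-CTLA-4 (3.50 to 4.97). The level was highest with depletion and lowest with IgG, with no overlap of the intervals. A Gzmb UMI was seen in 21.6% of Foxp3 cells in the IgG library (21 of 97, 13.9 to 31.2%), 33.7% under anti-CTLA-4 (28 of 83, 23.7 to 44.9%) and 65.1% after depletion (41 of 63, 52.0 to 76.7%), and at 1000 UMIs per cell in 11.6%, 14.5% and 49.2%. The UMIs of the depletion library were spread over cells, as the highest cell held 7.34% of the UMIs, against 30.6% and 29.9% in the other libraries. In Foxp3-negative cells without CD8 transcripts Gzmb stood at 261, 399 and 224 CPM and was seen in 18.4%, 21.9% and 18.8% of cells. In B cells it was seen in 0 of 55, 2 of 176 and 1 of 132.

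Itgae (chr11:73090583-73147446) stood at 105 CPM (79.6 to 136), 114 (84.7 to 151) and 313 (246 to 392.1) in the same order, 2.73-fold higher with depletion than with anti-CTLA-4 (1.88 to 4.001), and was seen in 27.8%, 33.7% and 58.7% of cells. At 1000 UMIs per cell it was seen in 9.47%, 12.0% and 38.1%. A Gzmb and an Itgae UMI in the same cell were found in 7.22%, 12.0% and 42.9% of Foxp3 cells. Klrg1 stood at 75.9, 49.1 and 200.2 CPM (4.08-fold, 2.40 to 7.18), in 15.5%, 14.5% and 36.5% of cells. Il1rl1 stood at 59.6, 100.4 and 188 CPM and did not reach the ratio of 2 (1.87-fold, 1.20 to 2.91). S1pr1 and Klf2, an egress receptor and the factor that drives it, were 2.07-fold (1.17 to 3.69) and 2.42-fold higher (1.73 to 3.38), with 27.6% and 23.9% of their depletion UMIs in 1 cell. Also among the 6 highest were AA467197 (7.74-fold, with 53.8% of UMIs in 1 cell, and 4.40-fold without the highest cells), Klhl6 (3.29-fold), Msrb1 (3.30-fold) and the macrophage gene Lyz2 (5.15-fold). Lyz2 had 79.6% of its depletion UMIs in 1 cell and was 1.13-fold higher without the highest cells.

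**Figure D5:**
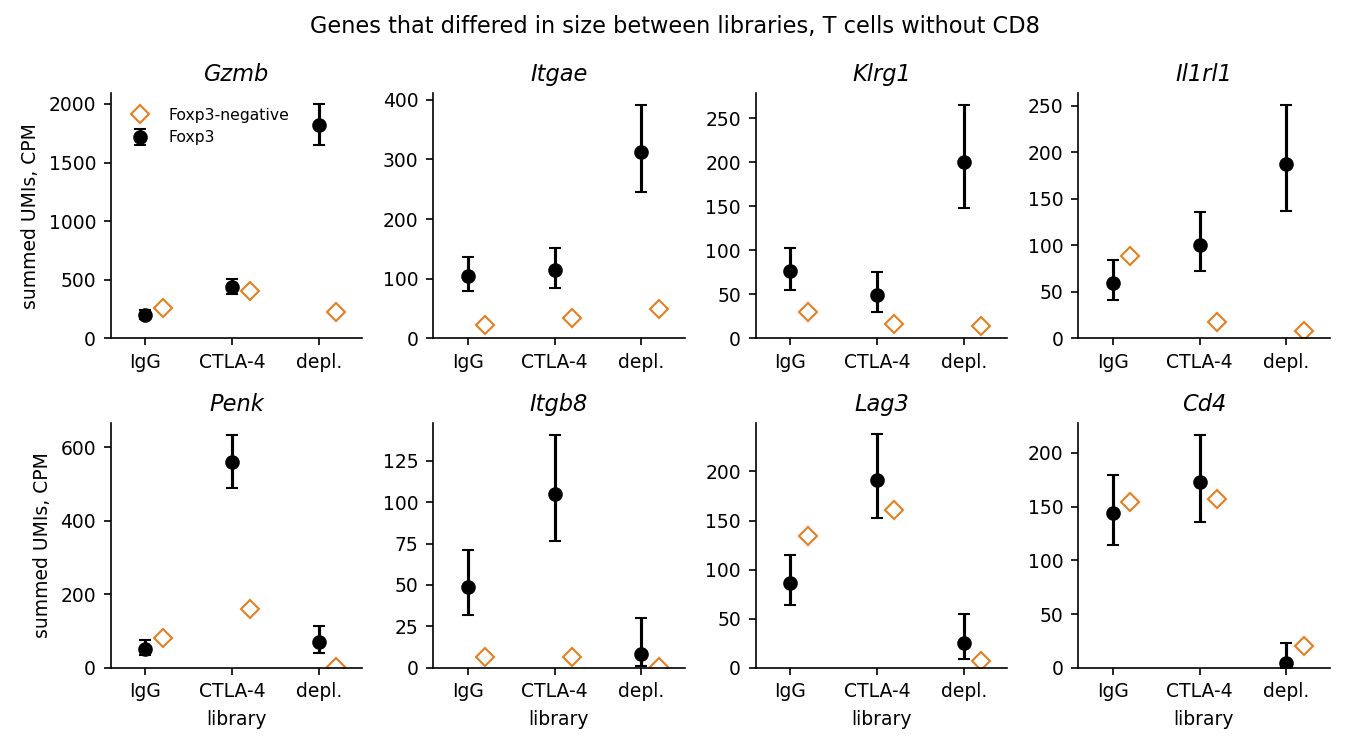
Summed UMIs in CPM of 8 genes in Foxp3 T cells without CD8 transcripts (filled circles, with exact Poisson 95% intervals) and in Foxp3-negative T cells without CD8 transcripts (open diamonds) in the IgG, anti-CTLA-4 (CTLA-4) and depletion (depl.) libraries. Gzmb, Itgae, Klrg1 and Il1rl1 are highest with depletion, at 1818, 313, 200.2 and 188 CPM, and Penk, Itgb8, Lag3 and Cd4 are highest with anti-CTLA-4.

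Several genes were lower with depletion than with anti-CTLA-4. A high value in the single anti-CTLA-4 library enters both comparisons, so a rise against IgG and a fall here are not independent results. Next to Cd4, these included Itgb8 at 105 and 8.34 CPM (12.6-fold lower, 3.29 to 107), Penk at 558 and 70.9 (7.87-fold, 4.81 to 13.7) and Lag3 at 192 and 25.02 (7.65-fold, 3.37 to 21.5). Penk was 3.13-fold lower among cells with at least 2 Foxp3 UMIs and 111-fold among cells with 0 C1q UMIs. The depletion library held only 17 Penk UMIs in 4 cells before these filters, so both folds rest on very few counts. Rbpj, the nuclear mediator of Notch signals, stood at 222 CPM in the IgG library, 404 under anti-CTLA-4 and 66.7 after depletion (6.06-fold lower, 3.62 to 10.8). Mt1 was 8.12-fold lower, and 4.52-fold without the highest cells. Further inhibitory genes were lower as well, with Pdcd1 at 100.4 and 45.9 CPM, Cd274 (the ligand PD-L1) at 72.4 and 29.2 and Tox at 86.4 and 41.7. Izumo1r stood at 642 and 313 CPM (2.05-fold lower, 1.59 to 2.69) and Tnfrsf4 at 1682 and 909. Cxcr6 (79.4 and 16.7 CPM) and Gpr183 (126 and 33.4 CPM), both receptors that guide T cells in tissue, were lower.

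By list, 3 of 4 checkpoint genes measured were at least 1.5-fold lower (median log2 ratio -0.94) and 1 higher, against 16.9% of all genes lower and 11.5% higher (median -0.03). Of 12 regulatory identity genes 0 were higher and 3 lower, Tnfrsf4, Izumo1r and Itgb8 (median -0.24). Of 11 suppressive molecules 5 were lower and 2 higher (median -0.49), and of 14 tissue effector genes 5 were higher and 4 lower. Of 9 proliferation genes measured 7 were higher (median 0.91), with 91.8% of the 9-gene cell cycle UMIs in 5 cells. Of 16 interferon response genes 3 were at least 1.5-fold higher and 0 lower: Isg15 stood at 199 and 421 CPM (2.12-fold, 1.57 to 2.87), Ifit1 at 93.4 and 221 (2.37-fold, 1.54 to 3.66) and Ifit3 at 121 and 263 (2.16-fold, 1.47 to 3.19). Of 11 MHC class I genes 0 passed 1.5-fold in either direction (median 0.01).

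Markers of myeloid cells were also seen in the members. Their 10 myeloid markers summed to 1213 CPM in the IgG library, 843 under anti-CTLA-4 and 1297 after depletion, and to 901, 829 and 1014 without the highest cell of each library. Lyz2, Tyrobp and Fcer1g had the same highest cell in the depletion library, and Fcer1g, Tyrobp and H2-Ab1 the same highest cell in the IgG library. The part of these transcripts in the library differences was not tested.

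In the depletion library, 70 Foxp3 T cells carried CD8 transcripts, against 5 with IgG and 12 with anti-CTLA-4. Of T cells with a CD8 UMI, they were 6.76% with IgG (2.23 to 15.1%) and 8.28% with anti-CTLA-4 (4.35 to 14.0%). With depletion they were 9.76% (7.69 to 12.2%), and the intervals overlapped. The 70 cells shared part of the pattern. Gzmb stood at 1723 CPM in them against 1818 in the 63 cells without CD8 transcripts, Itgae at 338 against 313 and Ifi27l2a at 8000.4 against 8696. Ikzf2 was lower at 761 against 1385 CPM, Tnfrsf4 at 453 against 909 and Klrg1 at 86.7 against 200.2. Ctla4 stood at 506 and 500.5 CPM. A Gzmb UMI was seen in 82.9% of them (58 of 70, 72.0 to 90.8%) at a median of 4551.5 UMIs. They also held 4369 CPM of neutrophil markers, against 62.6 in the cells without CD8 transcripts. Of the 70 cells, 22 had a single CD8 UMI. The 63 members may thus include cells whose CD8 transcripts were missed, which was not tested.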

How the data were processed

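Single-cell RNA was measured in 4 10x Genomics libraries (Chromium 3′ v2 chemistry, per the labels). The authors deposited count matrices of unnormalized UMIs, made with Cell Ranger 3.1.0 per the file headers on mm10 per the submitters' processing notes. Barcodes below 200 genes or above 10% mitochondrial UMIs were left out (20 to 41 per library). No doublet was removed in the main analysis, and an alternative left out the top 5% of Scrublet scores (3, 1 and 1 members). Library depth ran from 7950206 to 21471565 UMIs.

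UMIs were summed per library and population. The population contrast used edgeR 4.0.16 (R 4.3.3, quasi-likelihood, TMM, filterByExpr, library block) with Benjamini-Hochberg adjustment at 0.05, without the rule genes and with DESeq2 1.42.0 as an alternative. Between libraries, ratios have conditional binomial 95% intervals, levels exact Poisson and shares exact binomial ones, all for counting error only. A limit for a count of 0 uses 3 counts. Lists count genes with at least 20 UMIs and a ratio of 1.5. Named genes were the 12 highest and 12 lowest that passed and moved alike in all libraries, the 6 highest and 6 lowest by the size rule in each library comparison, and list genes. Other alternatives changed the cell filters, the comparator, the thresholds and the libraries used. The fit was tested on simulated data. Gene coordinates came from GENCODE vM21, where 27645 of 27998 gene identifiers matched, and promoters from RefSeq. The members, gene lists and tests were chosen with earlier results of these data known.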

Additional observations from a re-analysis of the deposited data

Results flagged for a closer look

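For 12 genes, the ratio of CPM in Foxp3 to Foxp3-negative T cells without CD8 transcripts pointed in opposite directions in different tumor libraries, with counting intervals that lay on opposite sides of 1. Only the named genes and the 313 genes of the lists were searched, as far as they were in the data and not part of the rule. The share over all genes was not computed, so the count of 12 has no background to be set against. The intervals treat UMIs as separate counts. Each library is 1 sample, and the difference between libraries was not tested.

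In a first set of genes, Gzmb was at 0.769 with IgG and 8.12 with depletion. Penk was at 0.657 (0.421 to 0.997), 3.48 and 37.8 (10.9 to 201, with 3 UMIs in Foxp3-negative cells) in the order IgG, anti-CTLA-4 and depletion. Il1rl1 was at 0.674 (0.445 to 0.998), 5.84 and 23.1. With IgG the intervals of Penk and Il1rl1 ended just below 1, and 41.4% of the Penk UMIs of Foxp3 cells lay in 1 cell. Lag3, an inhibitory receptor, was at 0.647 with IgG and 3.64 with depletion, where it was scarce in both populations. Rbpj was at 0.718, 1.77 and 0.446. Il1r2, a decoy receptor for IL-1, was at 4.01 with anti-CTLA-4 and 0.116 with depletion, and the metallothionein gene Mt1 at 7.22 and 0.110. In Foxp3-negative cells Il1r2 stood at 23.9, 9.90 and 143 CPM and Mt1 at 23.9, 18.8 and 152, in the order above. Neutrophil markers in those cells summed to 207, 17.7 and 5020 CPM, and their part in these ratios was not tested. In Foxp3 cells 72.4% of the anti-CTLA-4 Mt1 UMIs lay in 1 cell. Cd200, an inhibitory ligand, was at 0.503 with anti-CTLA-4 and 3.11 with depletion. Ctsw, a cathepsin of cytotoxic cells, was at 0.644 with IgG and 1.33 with anti-CTLA-4.

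Among genes of other cells, Cd79b of B cells was at 0.376, 0.438 and 2.46, the cathepsin gene Ctss at 1.44, 0.668 and 0.762, and H2-Ab1 at 1.93, 0.113 and 0.132. In the IgG library 84.7% of the H2-Ab1 UMIs of Foxp3 cells lay in 1 cell.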

How the results depend on the processing

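Limits were set by depth and cell number: each library holds 63 to 97 Foxp3 cells, a Foxp3 or CD8 UMI can be missed in a shallow cell, and each condition is 1 library. No paired analysis was possible because each library is a single sample whose number pairs it with no other. Within libraries the populations were blocked by library, and with no library block 152 genes were higher and 262 lower in place of 330 and 432.

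DESeq2 called 114 higher and 190 lower, and no filter on low counts gave 696 lower. Foxp3-negative cells with a Cd4 UMI gave 127 higher and 119 lower. Leaving out 1 library at a time gave 231 to 318 higher and 335 to 483 lower. At least 2 Foxp3 UMIs gave shares of T cells of 17.5%, 11.3% and 3.15% (IgG, anti-CTLA-4, depletion), with 0% of the depletion cells carrying Cd4. Thinning to 1000 UMIs gave 11.6% and 8.12% with IgG and anti-CTLA-4, and Cd4 in 23.3%, 15.9% and 0% of Foxp3 cells.

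For anti-CTLA-4 against IgG, thinning left 11 genes higher and 11 lower, a ratio of 1.5 gave 370 and 351, and 15 UMIs with no minimum share gave 256 and 368. Lower genes were 63 without the top Scrublet scores, 35 at a C1q of 0 and 40 without cycling cells, the last chosen after seeing the data. For depletion against anti-CTLA-4 the first 3 settings gave 20 and 14, 283 and 425, and 206 and 482, and a C1q of 0 gave 100 lower.

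Directions reversed for Mt1 (0.983-fold higher at a C1q of 0), for Lyz2 (0.688-fold higher at 2 Foxp3 UMIs), and for genes lower with anti-CTLA-4: Top2a (0.749-fold lower thinned, 0.575 without cycling cells), Mki67 (0.621) and Prc1 (0.691) without cycling cells, and Mcm5 (0.874 thinned). A fold under 1 is a change the other way. The causes were not tested. Penk was 10.7-fold higher with anti-CTLA-4 and 4.68-fold with at least 2 Foxp3 UMIs.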
